A study of Caenorhabditis elegans with 16 samples.

Results

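The genes described here are 38 *C. elegans* genes that the germline transcribes for the oocyte, its eggshell and the first divisions of the embryo. They were chosen by name from a list, and all 38 were found among the 29351 genes of the normalized count table and passed the filter on low values, which asked for a mean normalized count of 10 or more. The series measured RNA from whole day 1 adults of 4 groups, with 4 samples in each: rnp-6(G281D) worms on *E. coli* BW25113, wildtype N2 worms on BW25113, rnp-6(G281D) worms on *E. coli* OP50, and wildtype N2 worms on OP50. All samples were grown for 3 days at 20 °C. The paper reports slower growth and smaller body size of rnp-6(G281D) worms on OP50, and lists reduced fecundity among their phenotypes. The part of these traits in the values below was not tested. rnp-6 encodes the worm ortholog of the human splicing factor PUF60, the mutant carries the single allele dh1127, OP50 is the standard B-type laboratory diet and BW25113 is a K12-type strain. Each sample is RNA of synchronized whole worms in which gonad, soma and the embryos still held in the uterus were lysed together, so fewer germ cells and less RNA per germ cell cannot be told apart. The labels number the samples of a group but do not say what separates them, so p-values measure the spread between these samples, which may be technical.

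In the *C. elegans* hermaphrodite, germ cells move along the gonad arm from a stem cell pool kept by the Notch receptor GLP-1 into meiosis and oocyte growth. The growing oocyte takes up yolk, loads mRNAs whose translation is held back by RNA-binding proteins, and stores the proteins from which the eggshell is assembled in layers after the sperm enters. P granules, which are condensates of RNA and protein at the nuclear envelope of germ cells, carry the Vasa-type helicases and PGL scaffold proteins. Because the oocyte's transcripts are passed on to the embryo, the same mRNAs are also present in early embryos inside the mother.

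The libraries resembled each other closely over all genes, with Pearson correlations of 0.9885 to 0.994 within groups and 0.9717 to 0.9912 between groups. Totals of the normalized counts were 36330400 to 38381700 per sample, and steps in the low values put the sequencing depth at about 32400000 to 47900000 counted reads. This depth is a rough estimate, because only 58.0% to 88.0% of the low values in a library lay on the fitted step. The highest depth came from the library with the lowest share, replicate 3 of rnp-6(G281D) on OP50. In replicate 1 of rnp-6(G281D), the gene F31C3.14 alone took 2.33% of the total on BW25113 and 2.03% on OP50, against 0.17% to 0.69% in the other 14 libraries. Counts of genes that passed are therefore also given without these libraries. The rnp-6 transcript itself was higher in the mutant on BW25113 (log2FC 0.44, SE 0.03) and on OP50 (log2FC 0.35, SE 0.03), and since the allele changes an amino acid its level does not check the labels.

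All 38 genes were well expressed. Together they made up 2.03 ± 0.05% of the total in rnp-6(G281D) and 2.01 ± 0.03% in wildtype on BW25113, and 2.06 ± 0.05% in rnp-6(G281D) and 2.02 ± 0.02% in wildtype on OP50 (SD, n = 4 each). To compare levels between genes, normalized counts were divided by the length of each gene's longest coding transcript in kilobases. On this scale 28 of the 38 genes were in the top 10% of the 14576 protein-coding genes tested, and the lowest of them, lin-41, was at percentile 66.0. The members' median was 5229 normalized counts per kilobase, against 299.2 for all protein-coding genes tested.

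**Figure D1:**
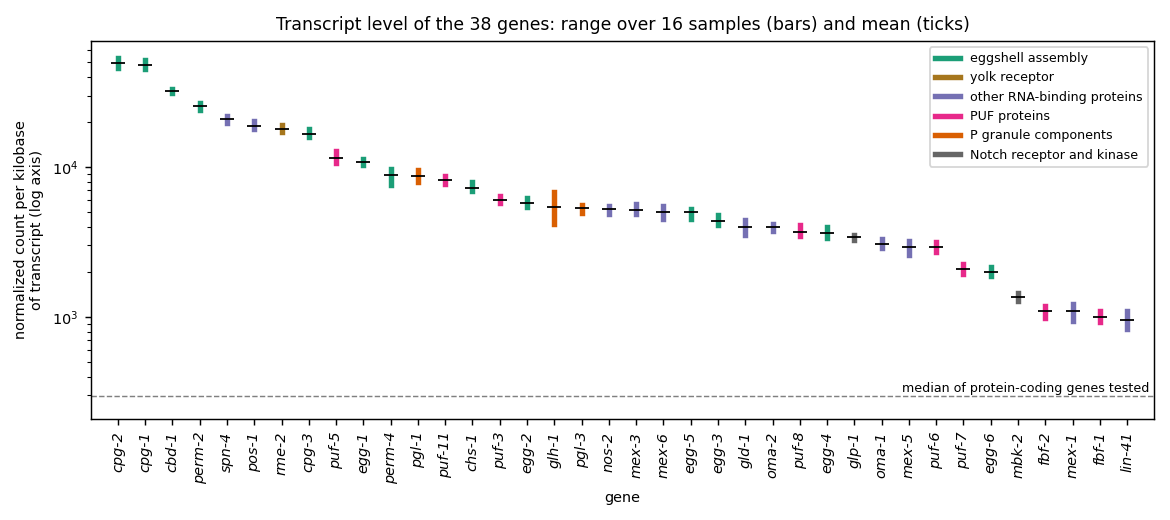
Normalized count per kilobase of transcript (log axis) for the 38 genes in order of their mean. Each bar spans the 16 samples, the tick is the mean, colours mark the gene's role and the dashed line is the median of the protein-coding genes tested (299.2); the means run from 49529 for cpg-2 to 952 for lin-41, and the bar of glh-1 is longer than those of its neighbours.

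The 4 highest levels were those of eggshell genes. The chondroitin proteoglycans cpg-2 and cpg-1, which line the inner eggshell, led with means of 49529 and 48256 normalized counts per kilobase, and their ranges over the 16 samples overlapped. Next came cbd-1, a chitin-binding protein of the oocyte cortex and vitelline layer, at 31926, and perm-2, a protein of the vitelline layer, at 25520, each clear of its neighbours. The RNA-binding proteins spn-4 (20768) and pos-1 (18907) and the yolk receptor gene rme-2 (18035) followed, with ranges that overlapped from one to the next. Of the 37 neighbouring pairs in the whole order, 28 overlapped. The lowest 4 were fbf-2 (1095) and fbf-1 (1003), which keep germline stem cells in the mitotic state, mex-1 (1091), a CCCH zinc finger protein of the early embryo, and lin-41 (952), a regulator of oocyte growth. The FPKM table that the authors also deposited gives another order, because the length that each FPKM value implies lay within 25% of the gene's genomic span, introns included, for 86.7% of 9661 protein-coding genes and within 25% of the transcript length for 23.1%. Thus mbk-2, with a span of 26804 bases and a transcript of 3594, was the lowest of the 38 in FPKM (4.70).

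The levels were also steady between replicates. The coefficient of variation within groups, averaged over the 4 groups, had a median of 3.01% over the 38 genes (range 1.59% to 5.75%), against 9.38% over all genes tested. The 38 genes averaged 2046 to 134760 normalized counts, while the genes tested went down to a mean of 10. No comparison with genes of matched level was made, so whether the difference is particular to their role was not tested. The 38 genes are protein coding, with 9 on chromosome I, 9 on II, 5 on III, 11 on IV, 4 on V and 0 on X, where 14.1% of the protein-coding genes tested lie. Their longest coding transcripts had a median of 6 exons, as did those of all protein-coding genes tested.

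On OP50, the question was whether the normalized counts of the 38 genes differed between rnp-6(G281D) and wildtype worms. Most of them differed little. These counts are relative to the other RNA of the whole worm. A change shared by most transcripts would therefore not show, and the amount of RNA per oocyte was not measured. A gene is called here when limma gave an adjusted p under 0.05 (Benjamini-Hochberg over 15799 genes) and an absolute log2FC over 0.5. Of the 38 genes, 1 was called (glh-1, lower in rnp-6(G281D)), where 11.5% of all genes tested were called, 5.6% as lower. With the adjusted p alone, 14 of 38 passed, 10 higher and 4 lower in the mutant, against 29.2% of all genes, 14.3% higher and 14.9% lower. The median log2FC of the 38 was 0.05 (all genes 0.00) and the median size of the change was 0.07, against 0.15 over all genes. For 37 of the 38 the 95% interval of the log2FC lay wholly within 0.5 of 0, which held for 55.5% of all genes, and for 34 of the 38 within 0.25, which held for 33.7%. Within 0.5 of 0 also lay all 17 genes of meiotic maturation and division and all 17 of synapsis and recombination. So did all 8 other eggshell and permeability barrier genes and 25 of 27 other germline RNA regulators, so small changes were not particular to the 38. The median standard error was 0.03 for the 38 genes and 0.10 for all genes, and changes as small as 0.07 reached the threshold. The 4 mutant and 4 wildtype samples did not overlap for 14 of the 38 genes, 11 of them higher and 3 lower in rnp-6(G281D), against 30.7% of all genes, 14.8% higher and 15.9% lower. The number that passed was 10 without rnp-6(G281D) replicate 1, 9 without rnp-6(G281D) replicate 2, 9 without wildtype replicate 4 and 7 without wildtype replicate 1. Replicate numbers paired these samples, and with the number as a block 14 passed, 10 higher and 4 lower, against 31.4% of all genes.

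**Figure D2:**
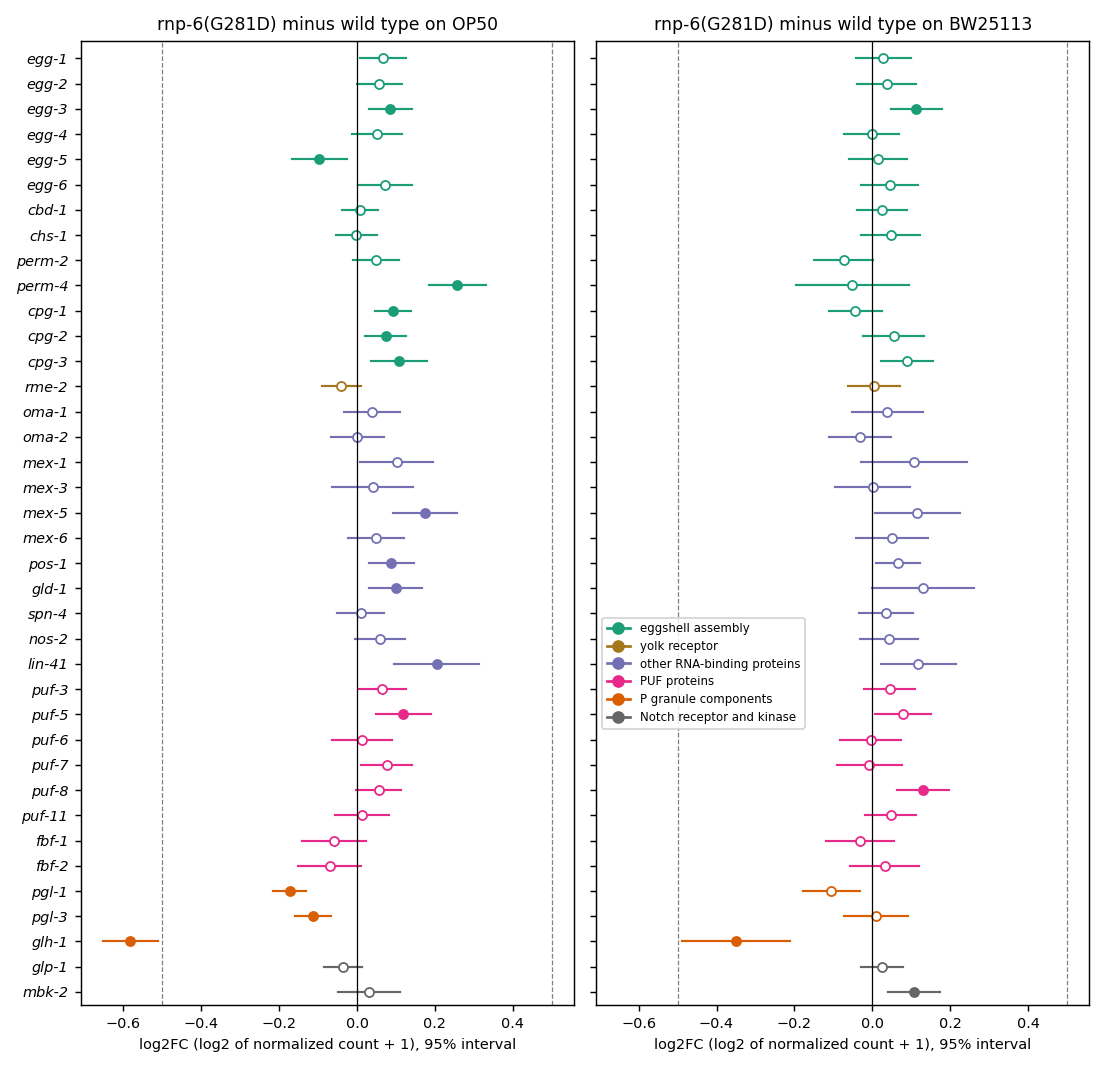
log2FC of the 38 genes, rnp-6(G281D) minus wildtype, on OP50 (left) and BW25113 (right), on the scale of log2(normalized count + 1). Circles are estimates and lines 95% intervals from limma (n = 4 per group), filled circles have an adjusted p under 0.05, dashed lines mark 0.5 on either side and colours mark roles; the estimate for glh-1 (-0.58 on OP50 and -0.35 on BW25113) lies far to the left of the other 37.

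All 3 P granule genes fell. glh-1 (WBGene00001598, chromosome I, 6854478 to 6857536, plus strand, Ensembl 115 on WBcel235) encodes a Vasa-type DEAD-box helicase of P granules. On OP50 it had 11654, 11571, 11871 and 12332 normalized counts in rnp-6(G281D) worms, against 18658, 17072, 17365 and 17929 in wildtype worms. Every mutant sample was below every wildtype sample, and the mean was 33.2% lower in rnp-6(G281D). The log2FC was -0.58 (SE 0.03, 95% interval -0.65 to -0.51, limma adjusted p = 6.0e-07, exact permutation p = 0.0286, the smallest that 4 against 4 samples can give). It passed in all 18 alternative settings, with a log2FC between -0.60 and -0.56, and was -0.58 in the FPKM table.

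pgl-1 and pgl-3 encode the related scaffold proteins from which P granules condense. pgl-1 (WBGene00003992, chromosome IV, 6974441 to 6977318, minus strand) had 19442, 19286, 19161 and 19102 normalized counts in rnp-6(G281D) on OP50, against 22007, 21769, 21365 and 21692 in wildtype. The groups did not overlap, and the difference was small in size but tight (log2FC -0.17, SE 0.02, limma adjusted p = 7.1e-05). pgl-3 (WBGene00003994, chromosome V, 4755979 to 4758587, plus strand) had 11677, 11635, 11518 and 11287 in rnp-6(G281D), against 12625, 12386, 12280 and 12574 in wildtype, again without overlap (log2FC -0.11, SE 0.02, limma adjusted p = 0.0022). The summed counts of the 3 P granule genes were 42492 to 42773 in rnp-6(G281D) and 51010 to 53290 in wildtype. Both pgl genes passed in all 18 alternative settings on OP50.

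Other P granule genes outside the list gave a mixed picture. glh-2, a close relative of glh-1 whose sequence is similar enough that reads may be shared between them, also fell on OP50 (log2FC -0.33, SE 0.03, limma adjusted p = 3.3e-05). It had 5297, 5232, 5620 and 5334 normalized counts in rnp-6(G281D), against 6954, 6458, 6664 and 6914 in wildtype. The sum of glh-1 and glh-2, which does not depend on how shared reads were divided, was 17228 ± 416 in rnp-6(G281D) and 24504 ± 916 in wildtype (SD, n = 4 each, exact permutation p = 0.0286). The log2 ratio of glh-1 to glh-2 was 1.14 ± 0.05 in rnp-6(G281D) and 1.40 ± 0.02 in wildtype (exact permutation p = 0.0286, adjusted 0.172 over 36 such ratios). With 4 against 4 samples this adjusted value could hardly fall under 0.05. The other helicases glh-3 (log2FC -0.01, limma adjusted p = 0.759) and glh-4 (-0.02, 0.713) and the P granule protein gene deps-1 (-0.06, 0.0841) did not pass.

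Among the 13 eggshell genes, 5 rose and 1 fell by the adjusted p on OP50 (all genes 14.3% higher and 14.9% lower), and the largest change was 0.26 on the log2 scale. perm-4, which encodes a vitelline layer protein that works with PERM-2, rose most. perm-4 (WBGene00016638, chromosome IV, 1121494 to 1125107, minus strand) had 10669, 10756, 9896 and 10734 normalized counts in rnp-6(G281D), against 8762, 8407, 8969 and 9041 in wildtype. All mutant samples were higher, by 19.6% in the mean (log2FC 0.26, SE 0.03, limma adjusted p = 2.4e-04), and it passed in all 18 alternative settings. perm-2 lies 1682 bases from perm-4 and is read in the opposite direction (chromosome IV, 1126790 to 1128865, plus strand). It had 19599, 19047, 18197 and 19165 in rnp-6(G281D) against 18186, 18879, 18406 and 17971 in wildtype, groups that overlapped (log2FC 0.05, limma adjusted p = 0.199).

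The other 4 eggshell genes that rose did so by 0.07 to 0.11 on the log2 scale. The proteoglycan gene cpg-1 (chromosome III, 4489359 to 4491392, plus strand) had 97545, 97463, 93384 and 95845 normalized counts in rnp-6(G281D), against 88809, 90648, 90400 and 90500 in wildtype, without overlap (log2FC 0.09, SE 0.02, limma adjusted p = 0.0072). After quantile normalization its adjusted p was no longer under the threshold (up to 0.143 over the alternatives). cpg-2 (log2FC 0.07) and cpg-3 (0.11), proteoglycans of the same shell, and egg-3 (0.09), a pseudophosphatase that organizes the cortex at egg activation, also rose with groups that did not overlap. cpg-2 no longer passed in 12 of 18 alternatives, cpg-3 in 8 and egg-3 in 5. The 95% interval of the log2FC was -0.05 to 0.05 for the chitin synthase gene chs-1 and -0.04 to 0.05 for cbd-1.

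egg-5 was the eggshell gene that fell, and here a near-identical partner matters. egg-4 and egg-5 encode pseudophosphatases of nearly the same sequence, which bind the kinase MBK-2 until the egg is activated. egg-5 had 11522, 11653, 10977 and 10646 normalized counts in rnp-6(G281D) on OP50, against 12149, 11990, 11583 and 12160 in wildtype (log2FC -0.10, limma adjusted p = 0.0407), groups that overlapped. egg-4 had 9353, 9150, 8812 and 8541 in rnp-6(G281D), against 8750, 8628, 8624 and 8561 in wildtype (log2FC 0.05, adjusted p = 0.211). Their sum was 20163 ± 818 in rnp-6(G281D) and 20611 ± 294 in wildtype (SD, n = 4 each, exact permutation p = 0.371), so the fall of egg-5 did not extend to the pair. egg-1 and egg-2, LDL-receptor-like proteins of the oocyte surface needed for fertilization, had log2FC values of 0.07 and 0.06 and did not pass.

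The yolk receptor gene rme-2 had 51632, 50968, 49745 and 48766 normalized counts in rnp-6(G281D) on OP50, against 51452, 51069, 51669 and 52628 in wildtype. The groups overlapped and the log2FC was -0.04 (95% interval -0.09 to 0.01, limma adjusted p = 0.216). Its ligands, the yolk proteins made in the intestine, moved in both directions in the same worms. vit-1 (log2FC -1.296) and vit-5 (-0.52) fell, while vit-2 (0.20), vit-3 (0.41) and vit-4 (0.12) rose. The sum of all 6 yolk protein genes overlapped between the groups, at 491839 to 566171 normalized counts in rnp-6(G281D) and 531049 to 557529 in wildtype.

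Of the 11 other RNA-binding protein genes, 4 rose and 0 fell on OP50 (all genes 14.3% higher and 14.9% lower). lin-41 encodes a TRIM-NHL protein that holds oocytes back from premature maturation. lin-41 (chromosome I, 9334800 to 9342496, minus strand) had 5288, 4931, 4740 and 4624 normalized counts in rnp-6(G281D), against 4193, 4226, 4589 and 3983 in wildtype (log2FC 0.20, SE 0.05, limma adjusted p = 0.0099). mex-5, a CCCH protein that sets up the embryo's first axis, had 6379, 6290, 5936 and 6287 in rnp-6(G281D) (chromosome IV, 13353723 to 13356104, plus strand), against 5137, 5588, 5760 and 5583 in wildtype (log2FC 0.17, SE 0.04, limma adjusted p = 0.0053). In both genes the groups did not overlap. mex-6, the close paralog of mex-5, had a log2FC of 0.05 that did not pass, and the sum of the pair was 16089 ± 596 in rnp-6(G281D) and 15052 ± 147 in wildtype (SD, n = 4 each, exact permutation p = 0.0286). pos-1 (log2FC 0.09) and gld-1 (0.10), translational repressors of the embryo and of meiotic germ cells, were the other 2 that passed. The oocyte maturation genes oma-1 (0.04) and oma-2 (0.00) did not.

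Of the 8 PUF genes, whose proteins bind the 3′ ends of maternal mRNAs, only puf-5 passed on OP50. puf-5 (chromosome II, 8575541 to 8577787, plus strand), needed for late oocyte formation, had 25929, 26287, 24165 and 23890 normalized counts in rnp-6(G281D), against 22728, 23395, 23304 and 22842 in wildtype (log2FC 0.12, SE 0.03, limma adjusted p = 0.018). Without wildtype replicate 1 its adjusted p was above 0.05 (up to 0.0798 over the alternatives). The stem cell genes fbf-1 (log2FC -0.06) and fbf-2 (-0.07) and the pairs puf-3 with puf-11 and puf-6 with puf-7 did not pass. The Notch receptor gene glp-1, which the stem cells need, had 14632, 14194, 14587 and 14234 in rnp-6(G281D), against 14745, 14432, 14806 and 15112 in wildtype, with overlap (log2FC -0.04, limma adjusted p = 0.258). The kinase gene mbk-2 had a log2FC of 0.03.

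For every member that did not pass on OP50, the 95% interval of the log2FC lay within 0.25 of 0. Among the paralog pairs on OP50, egg-1 ranged over 19232 to 20399 normalized counts in rnp-6(G281D) and 18525 to 19422 in wildtype, and egg-2 over 9846 to 10623 in rnp-6(G281D) and 9632 to 9916 in wildtype. The PUF pair puf-3 and puf-11 summed to 24947 ± 974 in rnp-6(G281D) and 24340 ± 305 in wildtype, and puf-6 and puf-7 to 9541 ± 396 in rnp-6(G281D) and 9285 ± 82 in wildtype (SD, n = 4 each, exact permutation p = 0.314 and 0.171). puf-7 alone had groups that just failed to touch, at 3843 to 4159 in rnp-6(G281D) and 3697 to 3835 in wildtype (log2FC 0.08, limma adjusted p = 0.0773). The stem cell pair fbf-1 and fbf-2 summed to 4739 ± 50 in rnp-6(G281D) and 4960 ± 204 in wildtype (SD, n = 4 each, exact permutation p = 0.0857). The maturation pair oma-1 and oma-2 summed to 11850 ± 400 in rnp-6(G281D) and 11700 ± 329 in wildtype.

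Of the single genes that did not pass on OP50, egg-6, a leucine-rich repeat protein listed here with the eggshell genes, ranged over 6677 to 7241 normalized counts in rnp-6(G281D) and 6500 to 6920 in wildtype (log2FC 0.07, limma adjusted p = 0.1165). mex-3, a KH protein that patterns the early embryo, ranged over 9953 to 11534 in rnp-6(G281D) and 9949 to 11020 in wildtype (log2FC 0.04, and -0.0024 in the FPKM table). spn-4, an RRM protein of the early embryo, ranged over 30246 to 32360 in rnp-6(G281D) and 30508 to 32075 in wildtype (log2FC 0.01). nos-2, a Nanos protein of the germ lineage, ranged over 6545 to 6853 in rnp-6(G281D) and 6251 to 6738 in wildtype (log2FC 0.06). mex-1 had a log2FC of 0.10 with an adjusted p of 0.103. In each of these genes the groups overlapped.

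**Figure D3:**
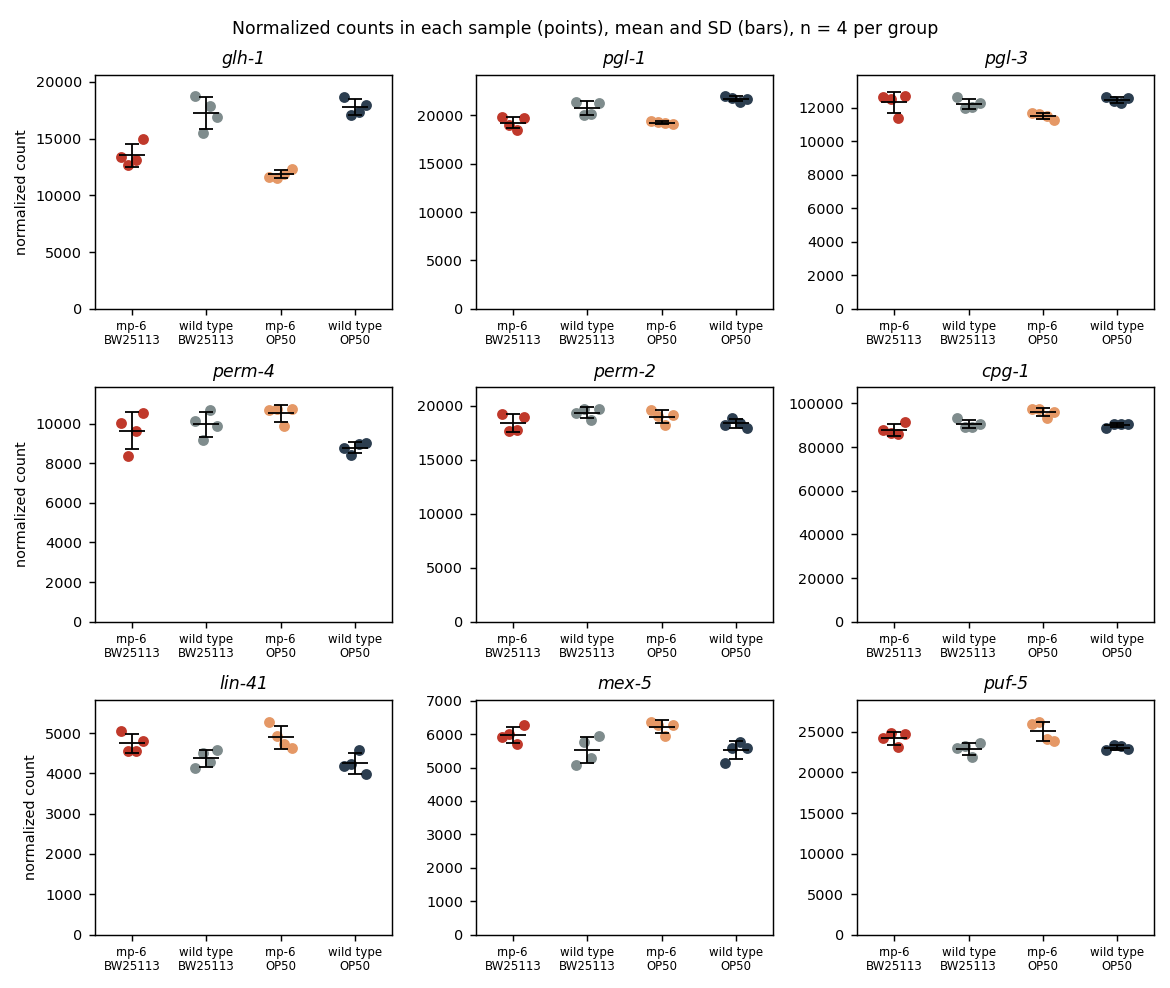
Normalized counts of 9 genes in each sample, with axes from 0. Points are samples, bars the mean and SD (n = 4 per group), groups run from rnp-6(G281D) on BW25113 to wildtype on OP50; glh-1 is lower in both mutant groups than in wildtype on the same diet, and perm-4 averages 10514 in rnp-6(G281D) on OP50 against 8795 in wildtype on OP50.

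Related germline lists were read against the 29.2% of all genes that passed on OP50. Of 8 other eggshell and permeability barrier genes, 2 passed: gna-2, which makes the sugar precursor of chitin, rose (log2FC 0.11) and the fatty acid synthase gene fasn-1 fell (-0.16). Of 17 genes of meiotic maturation and division 1 passed, the phosphatase gene cdc-25.1 (-0.22), and of 17 genes of synapsis and recombination 3 passed, htp-3 higher (0.09) and zim-2 (-0.22) and zim-3 (-0.11) lower. Of 27 other germline RNA regulators 6 rose and 3 fell, and sygl-1, a Notch target of germline stem cells, was the only one called (log2FC 0.59). Markers of other cells also moved. Of 7 markers of early zygotic transcription in embryos that could be tested, 4 were lower and called in rnp-6(G281D) on OP50, namely pes-10 (-0.67), end-1 (-0.91), tbx-37 (-0.70) and tbx-38 (-1.08), and all 9 listed markers summed to 408 to 487 normalized counts in rnp-6(G281D) and 577 to 749 in wildtype. Intestine markers summed to 37690 to 40687 in rnp-6(G281D) and 33801 to 36266 in wildtype, with 4 of 6 higher by the test. Of 12 sperm markers 0 rose and 1 fell, of 7 markers of the gonadal sheath and spermatheca 1 rose and 1 fell, of 5 body wall muscle markers 1 rose, and of 4 hypodermis markers 2 rose. Their part in the values of the 38 genes was not tested.

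On BW25113, the same question was asked on the K12-type diet. Here 0 of the 38 genes were called by limma, with 5.68% of all genes called. By the adjusted p alone, 4 passed, against 14.6% of all genes. The 4 were 3 higher (6.57% of all genes) and 1 lower (8.03%), and they were 2 higher and 2 lower after scaling to equal totals or in the FPKM table, and 5 higher and 1 lower after quantile normalization. Replicate numbers paired these samples, and with the number as a block 9 passed (7 higher, 2 lower), against 20.6% of all genes. The number without the block was 4 without rnp-6(G281D) replicate 1, and it was 2 without rnp-6(G281D) replicate 2 or 4 or wildtype replicate 2 and 1 without wildtype replicate 3. The 95% interval lay within 0.5 of 0 for all 38 genes (57.7% of all genes) and within 0.25 for 36 (35.5%).

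glh-1 was again the gene with the largest difference. It had 13350, 12657, 13070 and 14992 normalized counts in rnp-6(G281D) on BW25113, against 18768, 15461, 17839 and 16892 in wildtype. No sample overlapped, and the mean was 21.6% lower in the mutant (log2FC -0.35, SE 0.06, 95% interval -0.49 to -0.21, limma adjusted p = 0.0037), and it passed in all 18 alternatives. glh-2 fell too (log2FC -0.27, SE 0.07, limma adjusted p = 0.0243).

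The other P granule genes differed less on this diet. pgl-1 had 19778, 19004, 18505 and 19688 in rnp-6(G281D), against 21410, 20040, 20116 and 21241 in wildtype, without overlap (log2FC -0.11, limma adjusted p = 0.0562, and 0.0089 with the replicate block). pgl-3 had a log2FC of 0.01 on BW25113, with a 95% interval from -0.07 to 0.09.

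Small rises were seen in 3 genes of different roles. egg-3 had 8158, 8163, 7866 and 8547 normalized counts in rnp-6(G281D) on BW25113, against 7557, 7509, 7535 and 7650 in wildtype (log2FC 0.11, limma adjusted p = 0.0258). Without the replicate block, egg-3 and glh-1 were the 2 members that passed on both diets, although egg-3 did not pass on BW25113 in 6 of 18 alternatives. puf-8, a PUF gene of spermatogenesis and stem cell control, had 7048, 7149, 6890 and 7448 in rnp-6(G281D), against 6547, 6601, 6329 and 6589 in wildtype (log2FC 0.13, limma adjusted p = 0.0166). mbk-2 had 5170, 5018, 4950 and 5048 in rnp-6(G281D), against 4568, 4741, 4587 and 4852 in wildtype (log2FC 0.11, limma adjusted p = 0.0363), but did not pass in 11 of 18 alternatives. With the replicate block cpg-3, gld-1, mex-5 and puf-5 also rose, all at an adjusted p of 0.0284 to 0.0486. These genes, and pgl-1, which fell, passed with the block on OP50 too. With the block they therefore joined egg-3 and glh-1 in passing on both diets. Of all genes, 31.4% passed with the block on OP50 and 20.6% on BW25113. The share of all genes that passed on both diets was not counted, with or without the block. perm-4 (log2FC -0.05, 95% interval -0.20 to 0.09) did not pass with or without the block.

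**Figure D4:**
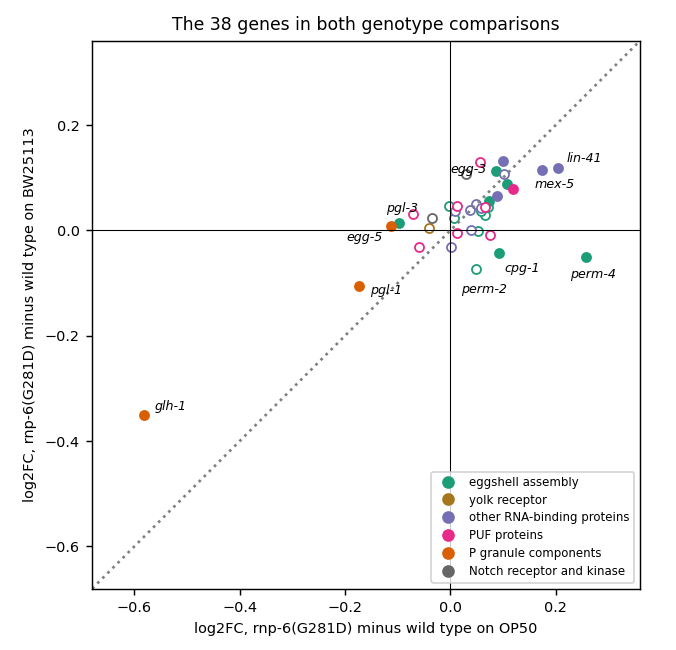
log2FC (rnp-6(G281D) minus wildtype) of the 38 genes on OP50 (x axis) and BW25113 (y axis). Filled circles passed on OP50, colours mark roles and the dotted line marks equal values; glh-1 and pgl-1 are below 0 on both axes, while perm-4 and cpg-1 are above 0 on OP50 and below 0 on BW25113.

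The genotype comparisons on the 2 diets share no samples, so their estimates can be set side by side. The sign was the same for 25 of the 38 genes, against 70.6% of all genes tested, and for 10 of the 14 genes that passed on OP50, against 85.9% of all genes that passed there. Pearson's r across the 38 genes was 0.756, and 0.425 across 37 without glh-1, as a description, since all genes come from the same libraries. The plot of one log2FC against the other shows glh-1 apart from a cluster around 0.

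The limma test of whether the genotype difference depended on the diet passed for 2 of the 38 genes, perm-4 and cpg-1, both below 0. Of all genes 4.66% passed (3.33% below 0). Among the 38 genes 0 were called (2.42% of all genes). After quantile normalization 1 interaction was above 0 and 2 below, against 0 and 2 as deposited. The number that passed was 0 without rnp-6(G281D) OP50 replicate 1 and 2 without rnp-6(G281D) BW25113 replicate 1. On BW25113 perm-4 had 10013, 8375, 9651 and 10538 normalized counts in rnp-6(G281D), against 10120, 9172, 10687 and 9903 in wildtype, so the groups that stood apart on OP50 overlapped. The interaction was -0.31 on the log2 scale (SE 0.08, limma adjusted p = 0.0364). The OP50 part of it was tighter than the BW25113 part, where the SD was 921 in rnp-6(G281D) and 626 in wildtype. It no longer passed when any of 10 libraries was left out (all 4 wildtype OP50, rnp-6(G281D) OP50 replicates 1, 2 and 4, wildtype BW25113 replicates 1, 3 and 4), with an adjusted p of at most 0.0966 and a value between -0.35 and -0.24 over all alternatives. With the replicate block the adjusted p was 0.0102.

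For cpg-1 the genotype difference was also above 0 on OP50 and below 0 on BW25113, with a smaller interaction. The diet differences (BW25113 minus OP50) were unlike. perm-4 had a log2FC of 0.18 in wildtype, which passed, and -0.13 in rnp-6(G281D), which did not. cpg-1 had 0.01 in wildtype, which did not pass, and -0.13 in rnp-6(G281D), which did. On BW25113 it had 87949, 86285, 85759 and 91596 normalized counts in rnp-6(G281D), against 93295, 89153, 89096 and 90761 in wildtype, with overlap, whereas on OP50 the mutant was higher in all samples. The interaction was -0.14 (SE 0.03, limma adjusted p = 0.0315). It fell short in 12 of 25 alternatives, among them quantile normalization and leaving out any of 9 libraries (wildtype OP50 replicates 1, 3 and 4, rnp-6(G281D) OP50 replicates 1 and 2, wildtype BW25113 replicates 1 and 4, rnp-6(G281D) BW25113 replicates 2 and 3), with values between -0.16 and -0.07 and an adjusted p of up to 0.419. For glh-1 the interaction was 0.23 (limma adjusted p = 0.104, and 0.0296 with the replicate block).

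Diet alone moved few of the genes. BW25113 against OP50 in rnp-6(G281D) gave 0 calls among the 38 genes by limma (9.36% of all genes). By the adjusted p 2 passed (18.1% of all genes), 1 higher (6.81%) and 1 lower (11.3%). After quantile normalization or scaling to equal totals the split was 1 higher and 2 lower. glh-1 was higher on BW25113 than on OP50, where the values are those given above (log2FC 0.19, SE 0.05, limma adjusted p = 0.0217). The 4 BW25113 samples were all above the 4 OP50 samples, and remained below the wildtype samples of either diet. It no longer passed without rnp-6(G281D) OP50 replicate 1 or 2 (adjusted p of up to 0.095 over all alternatives). cpg-1 was lower on BW25113 in all mutant samples (log2FC -0.13, SE 0.03, limma adjusted p = 0.0154). In this comparison the number that passed was 4 without rnp-6(G281D) BW25113 replicate 1 or 3 and 1 without rnp-6(G281D) OP50 replicate 1 or 2.

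Markers of other cell types also moved with the diet in rnp-6(G281D). Of 12 sperm markers tested, 6 fell on BW25113, spe-10, spe-11, spe-15, fer-1, gsp-3 and gsp-4, by -0.72 to -1.27 in log2FC, and all 16 listed markers summed to 1897 to 2234 normalized counts on BW25113 and 2548 to 3564 on OP50. The early embryo markers pes-10 (0.57) and end-1 (1.12) were higher on BW25113. All 9 embryo markers summed to 527 to 805 on BW25113 and 408 to 487 on OP50. Of 6 intestine markers 3 fell, with sums of 31023 to 34982 on BW25113 and 37690 to 40687 on OP50, and the yolk protein genes vit-1, vit-3, vit-4 and vit-5 were called higher. Their part in the glh-1 and cpg-1 values was not tested.

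BW25113 against OP50 in wildtype gave 0 calls among the 38 genes (limma, 3.33% of all genes called), and 1 passed, perm-4, which was higher (6.61% of all genes passed, 2.7% higher). After quantile normalization 1 was higher and 2 were lower. It was higher on BW25113 in all wildtype samples, by 13.4% in the mean (log2FC 0.18, SE 0.04, limma adjusted p = 0.0292). It no longer passed without wildtype OP50 replicate 1, 2 or 4 or wildtype BW25113 replicate 1, 3 or 4, and the adjusted p was 0.0505 in the FPKM table. Replicate numbers paired these samples too. With the number as a block perm-4 had a limma adjusted p of 0.0023 and was the 1 member that passed, against 10.7% of all genes. In wildtype, glh-1 had a log2FC of -0.05 between the diets, and the median log2FC of the 38 genes was -0.01. Of 12 sperm markers 2 fell in wildtype too, spe-15 (log2FC -0.37) and gsp-3 (log2FC -0.69), and the 16 listed markers summed to 2306 to 2637 on BW25113 and 2798 to 3074 on OP50. Their part in the perm-4 value was not tested. For all 38 genes the 95% interval of the diet difference lay within 0.5 of 0 in both genotypes, which held for 55.9% of all genes in rnp-6(G281D) and 63.6% in wildtype.

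Paralogs, and the neighbours perm-2 and perm-4, were followed as pairs in all 4 comparisons. Over 9 pairs and 36 ratios, none had an adjusted p under 0.05 (exact permutation tests, smallest adjusted value 0.172), and 6 ratios reached the smallest p that 4 against 4 samples allow. An adjusted p under 0.05 would have needed most of the 36 ratios at that smallest p. The adjusted values therefore cannot show that a ratio was unchanged. The largest of these outside the helicases was the ratio of egg-4 to egg-5, which was lower on BW25113 than on OP50 in rnp-6(G281D) by -0.22 on the log2 scale, while their sum was 20342 ± 744 on BW25113 and 20163 ± 818 on OP50 (SD, n = 4 each).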

How the data were processed

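Total RNA of whole day 1 adults was sequenced from stranded, ribosomal RNA-depleted libraries, 4 samples in each of 4 groups taken from the sample titles. The authors quantified reads with kallisto (0.46.1 in the submitters' processing notes) on the WBcel235 transcriptome and scaled them with DESeq2 (1.24). The deposited signal values are normalized counts, in which depth was removed by size factors and whole reads could not be recovered. The authors also deposited FPKM values for 19510 genes, and the notes name Cufflinks 2.2.1. The length each FPKM value implies was mostly the genomic span, so FPKM served only as an alternative within genes.

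The 38 genes, the other gene lists and the tests were chosen with earlier results of these data known. On log2(normalized count + 1), limma 3.58.1 (R 4.3.3) with a variance trend compared each pair of groups on its own 8 samples, and genotype by diet on all 16, for genes with a mean of at least 10. Genes passed at a Benjamini-Hochberg adjusted p under 0.05 over 15799 genes. Sums, ratios and means were compared by exact two-sided permutation over 70 divisions, which takes no account of the replicate numbers. Scripts were tested on simulated data. Annotation came from Ensembl 115, and figures from matplotlib 3.10.9 in Python 3.11.15.

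Values in every sample are given for members called in any comparison and for the member with the largest absolute log2FC on OP50 in each role. Members that passed on BW25113, the near-identical pairs turned on by a result, perm-2, cpg-1, mex-5, pgl-1 and pgl-3 were added after their values were seen. Deviations of same-numbered samples from their group means correlated over 10252 genes, with r of 0.197 to 0.299 for genotype on OP50, 0.104 to 0.470 for genotype on BW25113 and 0.212 to 0.564 for diet in wildtype, so these numbers were taken as pairs. For diet in rnp-6(G281D) r was -0.064 to 0.273, and they were not. Alternatives were other normalizations, filters, pseudocounts and fold thresholds, the FPKM table, a replicate block and leaving out each sample. No sequences were used here.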

Additional observations from a re-analysis of the deposited data

Results flagged for a closer look

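For perm-4 the genotype difference on BW25113 minus that on OP50 was -0.308268 on the log2 scale by the limma interaction test (adjusted p = 0.0364). For cpg-1 the same interaction was -0.135936 (adjusted p = 0.0315). Each of these interactions no longer passed in 12 of 25 alternatives, and 4.66% of all genes tested passed this test.

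Within groups of 4, 1 sample lay apart from the other 3 by Dixon's criterion in 5 of 152 gene and group combinations, and chance gives about 7.6. egg-6 had 6919.99 normalized counts in replicate 2 of wildtype on OP50, against 6500.27 to 6547.24 in the other samples of its group. perm-4 had 9896.17 in replicate 3 of rnp-6(G281D) on OP50, against 10669.2 to 10756.4. cpg-1 had 88808.9 in replicate 1 of wildtype on OP50, against 90399.9 to 90648.0. puf-11 had 13908.7 in replicate 3 of rnp-6(G281D) on BW25113, against 14847.8 to 14971.9, and pgl-3 had 11421.1 in the same sample, against 12508.1 to 12715.4.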

How the results depend on the processing

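No gene that passed turned its direction in the alternatives run, while the median interaction of the 38 genes was -0.0073 and turned to 0.0015 in the FPKM table, and log2FC values near 0 that did not pass, such as that of mex-3 on OP50, also changed sign there. For genotype on OP50, 14 of the 38 genes passed, against 7 with no filter on low values, 6 with no trend in the prior variance and 7 to 14 when 1 sample was left out. The 1 call became 14 with no fold threshold and 0 with an absolute log2FC over 1, and stayed at 1 to 1 when samples were left out. For genotype on BW25113, 4 passed, against 9 with the replicate block, 1 with no trend and 1 to 5 when 1 sample was left out, and the 0 calls became 4 with no fold threshold. For diet in rnp-6(G281D), 2 passed, against 1 with no filter, 7 in 1 fit of all 16 samples, 0 with no trend and 1 to 4 when 1 sample was left out, and the 0 calls became 2 with no fold threshold. With the replicate block 3 passed there, against 17.5% of all genes, although the numbers did not pair these samples. For diet in wildtype, 1 passed, against 3 after quantile normalization, 0 in the FPKM table, with no filter, in 1 fit of all samples or with no trend, and 0 to 1 when 1 sample was left out, and the 0 calls became 1 with no fold threshold. For the interaction, 2 passed, against 1 with no filter or with a mean of at least 100, 0 with no trend and 0 to 2 when 1 sample was left out, and the 0 calls became 2 with no fold threshold. With the replicate block 3 interactions passed, against 6.99% of all genes. The cause of these changes was not tested. glh-1, pgl-1, pgl-3, perm-4 and mex-5 passed on OP50 in all 18 alternatives, while gld-1 and egg-5 were lost in 9 of 18.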
